A study of Mus musculus with 2 samples.

Results

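10 adhesion genes of the cadherin superfamily were followed through the cell types of the embryonic mouse eye, in a control library and in a library from an embryo without *Six6* and with mosaic loss of *Six3*. The members were the rows, 10 of 31053 in the deposited gene lists, whose symbol was *Cdh2*, *Cdh4*, *Cdh6*, *Cdh8*, *Cdh11*, *Pcdh8*, *Pcdh9*, *Pcdh10*, *Pcdh17* or *Pcdh19*, and all 10 had UMIs in both libraries. Single-cell RNA-seq was done on eyecups (retina, lens and blood) of 1 embryo per genotype at E13.5. The control embryo, Six3+/-;Six6+/-, had 1 intact allele of each gene and so was not wild type. The DKO embryo, Six3F/F;Six6-/-;a-Cre, lacked Six6 in every cell and carried floxed Six3 alleles, which a-Cre deletes in the peripheral but not in the central retina. It was recognised by GFP-positive rosettes in the retina.

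Classical cadherins are calcium-dependent adhesion molecules that bind like molecules on the next cell and are tied to actin through catenins. Type I members such as N-cadherin (*Cdh2*) and R-cadherin (*Cdh4*) hold neuroepithelia together, and type II members such as *Cdh6*, *Cdh8* and *Cdh11* mark subsets of progenitors and neurons. Delta protocadherins (*Pcdh8*, *Pcdh9*, *Pcdh10*, *Pcdh17* and *Pcdh19*) are expressed in restricted patterns of the nervous system and take part in cell sorting, axon growth and synapse formation.

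The control library held 10315 cell barcodes and 85589515 UMIs and the DKO library 12672 barcodes and 85173276 UMIs. After the filters of the study 9822 and 12146 cells were left, with a median of 7620 and 5879 UMIs. The libraries shared 22 barcodes, 0.213% of those of the control. The cells formed 20 clusters, named here from marker genes, and the members and *Six3* were not among the genes used for clustering. 3 clusters were naive-like (3274 control and 3307 DKO cells, with progenitor markers such as *Sfrp2* and *Ccnd1*), 2 neurogenic-like (1442 and 1730 cells, led by *Atoh7*) and 2 ganglion-like (939 and 1985 cells, with ganglion cell markers such as *Nefm* and *Sncg*). Of the naive-like clusters, cluster 0 also passed the ciliary margin list. Cluster 2 (1046 and 1190 cells) passed the ciliary margin, the pigment epithelium and the naive list, was led by *Trpm1*, *Gja1*, *Pmel* and *Dct*, and is called margin and pigment cells. Cluster 10 (2 control and 779 DKO cells) was thalamic eminence- or Cajal-Retzius-like. In naive-like cells *Six6* stood at 368 counts per 1000000 UMIs (CPM) in the control and 45.3 CPM in the DKO library, and *Six3* at 309 and 231 CPM.

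Levels are UMIs summed over the cells of a class, per 1000000 UMIs of these cells. A 95% interval stands in parentheses and reflects the counting of UMIs alone. With 1 library per genotype there was no test, and genotype, embryo and library cannot be told apart. A gene was measured where it reached 10 CPM and 50 UMIs on either side, and was counted as higher or lower at a fold of at least 2. UMI counts were compared for 1 gene between cells, never between genes.

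In the control retina several members differed in level between naive-like, neurogenic-like and ganglion-like cells. From naive-like to neurogenic-like cells 4 of 9 measured members were higher, where 6.29% of 8651 genes were, and 2 were lower, where 5.83% were. *Pcdh19*, known from an X-linked epilepsy, was at 22 CPM (20.4 to 23.6) in naive-like and 187 CPM (179 to 195) in neurogenic-like cells, 8.5-fold higher. *Pcdh8* was at 0.272 CPM (9 UMIs) and 11.8 CPM (126 UMIs). *Pcdh17* was at 46.1 and 116 CPM and *Pcdh10* at 8.28 and 18.5 CPM. 4 of the 5 protocadherins were thus higher in the class led by *Atoh7*, and *Pcdh9* was not, at 21.3 and 21.7 CPM. The type II cadherins *Cdh6* (38.9 and 7.76 CPM) and *Cdh11* (376 and 178 CPM) were lower there.

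From neurogenic-like to ganglion-like cells of the control library 1 of 8 measured members was higher and 4 were lower, where 1197 and 1117 of 8894 genes were. *Pcdh9* was the higher one, at 21.7 CPM (19 to 24.7) and 90.6 CPM (84.1 to 97.5). *Pcdh19* (187 and 91.4 CPM), *Pcdh17* (116 and 32 CPM), *Cdh4* (64.4 and 23.5 CPM) and *Cdh11* (178 and 82.5 CPM) were lower. *Cdh2*, the cadherin of the whole neural retina, was at 208 and 206 CPM. *Pcdh19* and *Pcdh17* were therefore at their highest of these 3 classes in neurogenic-like cells, and *Pcdh9* in ganglion-like cells.

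The smaller classes had further patterns. Photoreceptor-like cells (85 control and 112 DKO cells) held *Pcdh17* at 234 CPM (191 to 284) in the control and 205 CPM (163 to 253) in the DKO library, and *Pcdh10* at 69.9 CPM (47.5 to 99.2) and 65.8 CPM (43.4 to 95.7). Amacrine- or horizontal-like cells (126 and 193 cells) held *Pcdh8* at 35.8 CPM (23.4 to 52.4) and 31.5 CPM (20.6 to 46.1). For these genes the intervals of the 2 libraries overlapped. Lens-like cells (411 and 404 cells) carried the type I cadherins, with *Cdh2* at 335 and 387 CPM and *Cdh4* at 68.6 and 45.3 CPM, beside *Cdh11* at 17.7 and 21.7 CPM and *Pcdh9* at 2.73 and 6.32 CPM. Of the groups plotted by class, *Cdh6* stood highest in margin and pigment cells, at 83.8 CPM (78.1 to 89.8) and 82.7 CPM (77.1 to 88.5). In red blood-like clusters 8 and 11, which measure free RNA, no member was above 7.16 CPM.

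**Figure D1:**
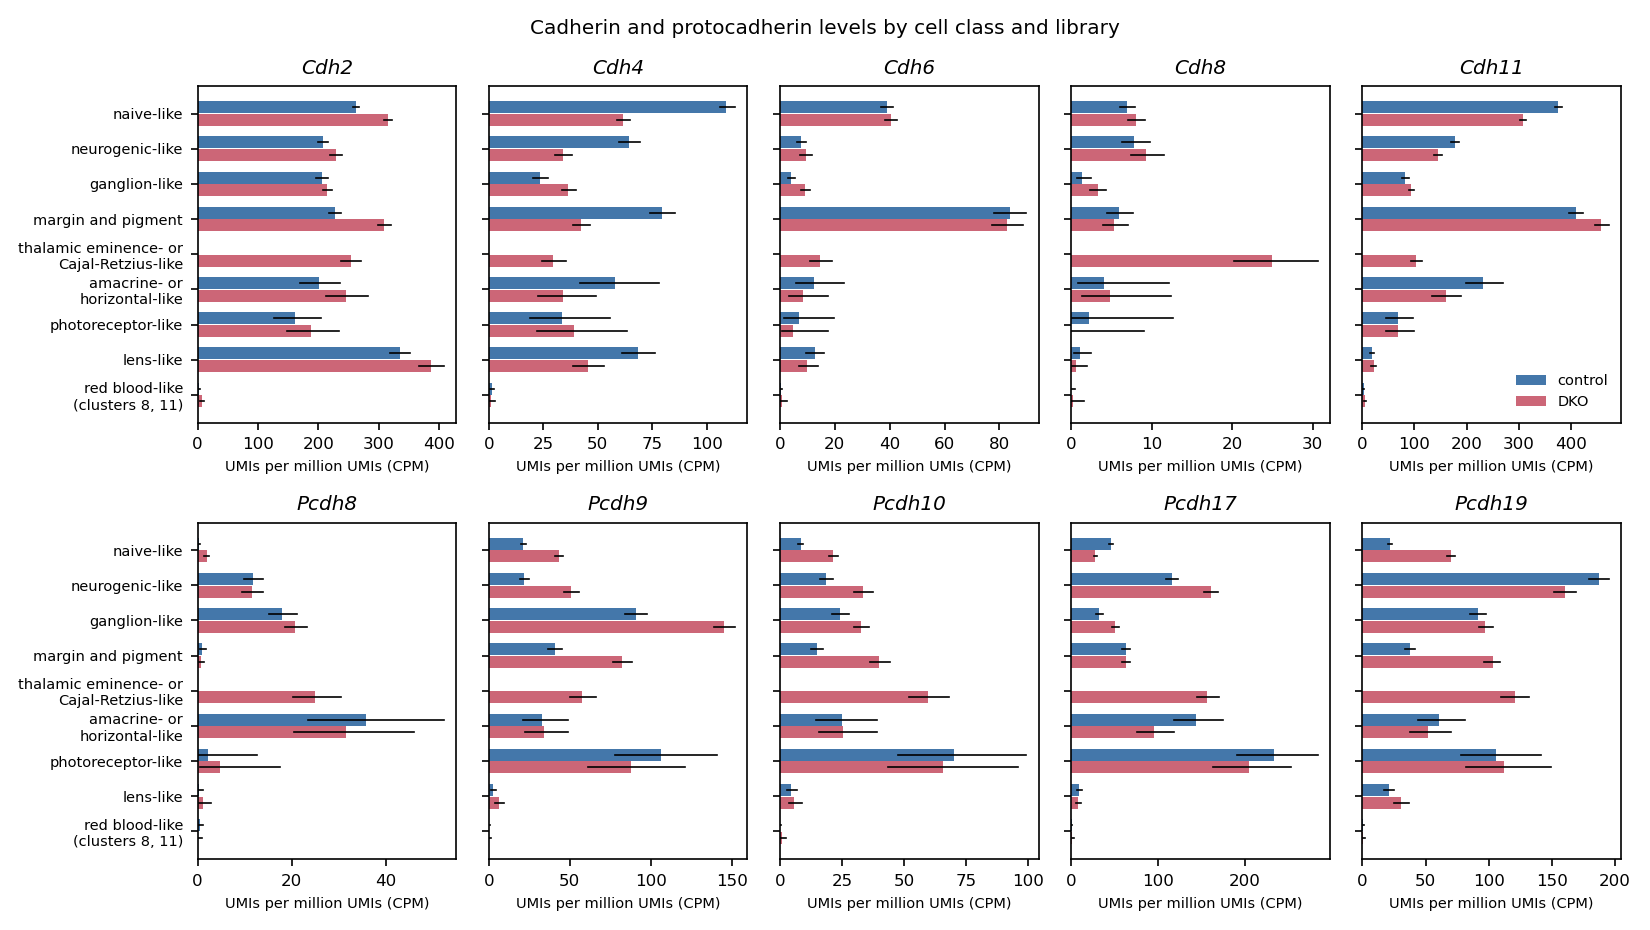
Level of each member in counts per 1000000 UMIs (CPM, horizontal axis, linear from 0 and scaled per panel) in 9 groups of cells, control library in blue and DKO library in red, with 95% Poisson intervals as black lines. *Cdh6* reached 83.8 CPM in margin and pigment cells, *Pcdh19* 187 CPM in neurogenic-like cells, and the thalamic eminence- or Cajal-Retzius-like group has a DKO bar only.

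In DKO naive-like cells 3 of 8 measured members were higher than in the control, all of them delta protocadherins, where 1.78% of 8448 genes were higher. None was lower, where 0.592% of genes were. The members were chosen with earlier results of these data known, so the shares over all genes stand beside these counts as description only. *Pcdh19* was at 22 CPM (728 UMIs) in the control and 69.8 CPM (2029 UMIs) in the DKO library, a log2 ratio of 1.67 (1.54 to 1.79) or 3.18-fold. *Pcdh10* was at 8.28 CPM (274 UMIs) and 21.5 CPM (626 UMIs), a log2 ratio of 1.38 (1.17 to 1.59). *Pcdh9* was at 21.3 CPM (705 UMIs) and 43.5 CPM (1263 UMIs), a log2 ratio of 1.03 (0.90 to 1.16) that lies just inside the limit. *Pcdh9* was below 2-fold when all genes were used for clustering (0.83), at resolution 0.3 (0.98), without integration (0.55), without hemoglobin, mitochondrial and ribosomal protein genes in the total (0.98) and with another ranking of leading genes (0.97), and *Pcdh10* without integration (0.75). *Pcdh19* had log2 ratios of 1.36, 2.03 and 2.12 in the 3 naive-like clusters 0, 1 and 6.

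Of the other protocadherins of naive-like cells *Pcdh17* had a ratio of the opposite sign. It was at 46.1 CPM in the control and 27.6 CPM in the DKO library (-0.74, -0.86 to -0.61). *Pcdh8* had 9 and 56 UMIs (0.272 and 1.93 CPM), a log2 ratio of 2.83 (1.80 to 4.03), at a level under the 10 CPM of a measured gene. Of the type I cadherins *Cdh4* was at 109 and 61.7 CPM (-0.82, -0.91 to -0.74) and *Cdh2* at 263 and 316 CPM (0.27, 0.22 to 0.31), so the pair had ratios of opposite sign. *Cdh11* was at 376 and 308 CPM (-0.29, -0.33 to -0.25), and the intervals of *Cdh6* (38.9 and 40.4 CPM) and *Cdh8* (6.92 and 8.09 CPM) included 0. For *Cdh6* the 3 naive-like clusters differed in sign, with -0.39 in cluster 0, 0.82 in cluster 1 and 0.65 in cluster 6. The median log2 ratio was 0.16 over the 8 measured members and 0.02 over all 8448 genes.

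Markers of other cells differed in the same cells. The 8 pigment epithelium markers, none of them at 0, summed to 14.9 CPM in the control and 76.3 CPM in the DKO library, and 2 of 2 measured genes were higher. The 8 ciliary margin markers summed to 413 and 546 CPM with 2 of 7 higher, and the 12 ganglion markers to 104 and 173 CPM with 2 of 5 higher. The 9 naive markers summed to 5082 and 3625 CPM with 2 of 9 lower, the 9 neurogenic markers to 449.9 and 435 CPM with 1 of 6 higher, and the 7 red blood markers to 3361 and 2271 CPM. The 9 lens markers summed to 226 and 90.7 CPM with 3 of 4 measured genes lower. In the mesenchyme and in the thalamic eminence or Cajal-Retzius list the 1 measured gene was lower, and 1 of 2 photoreceptor markers was higher. Their part in the differences of the members was not tested.

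**Figure D2:**
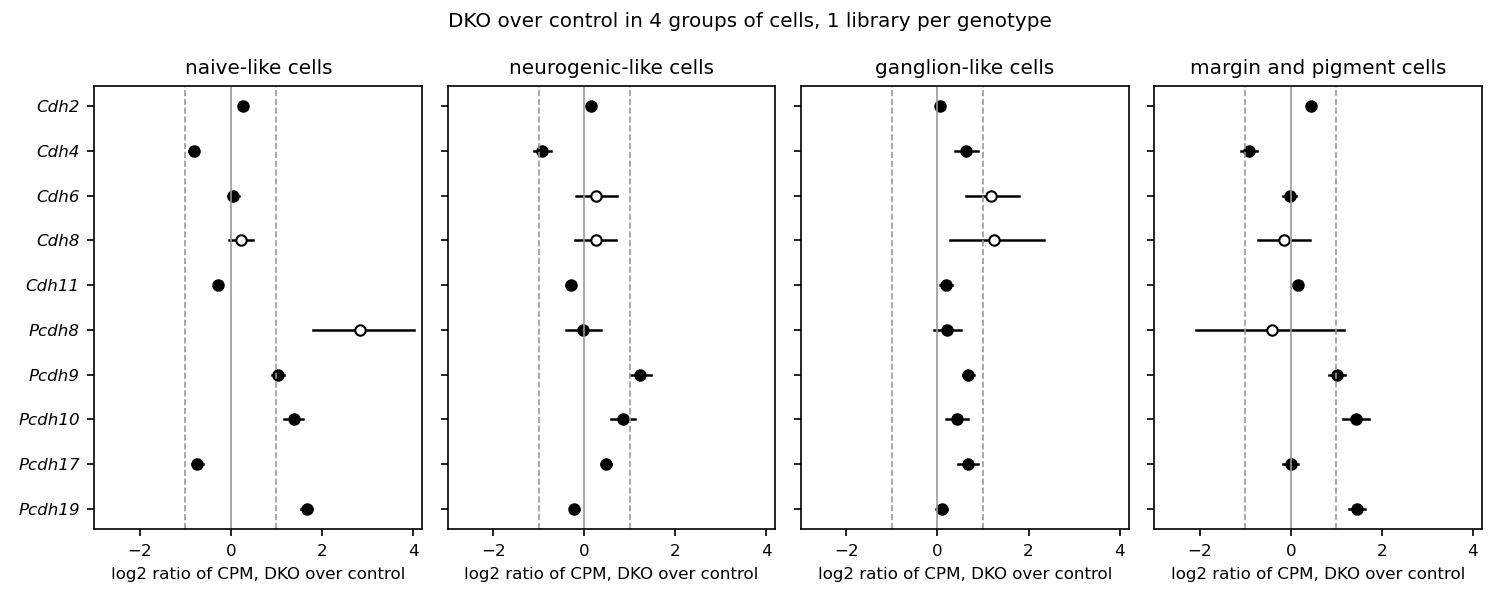
The log2 ratio of CPM, DKO over control (horizontal axis), of each member in 4 groups of cells, with 95% counting intervals as lines. Filled points reach 10 CPM and 50 UMIs in either library, open points do not, and dashed lines mark a fold of 2. *Pcdh9*, *Pcdh10* and *Pcdh19* lie at 1.02 or above in naive-like and in margin and pigment cells, and *Cdh4* lies below 0 in 3 of the 4 groups.

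The 250 bases before the start of the 3 protocadherins that were higher in DKO naive-like cells are shown because these genes differed together. The mm10 gene annotation places *Pcdh19* at chrX:133582860-133688987 (minus strand), *Pcdh10* at chr3:45378398-45435623 (plus strand) and *Pcdh9* at chr14:93013410-93890679 (minus strand). They were read 5' to 3' on the strand of the gene from RefSeq (GRCm38.p6), with every CpG in capitals.
Pcdh19, chrX:133688994-133689243, minus strand: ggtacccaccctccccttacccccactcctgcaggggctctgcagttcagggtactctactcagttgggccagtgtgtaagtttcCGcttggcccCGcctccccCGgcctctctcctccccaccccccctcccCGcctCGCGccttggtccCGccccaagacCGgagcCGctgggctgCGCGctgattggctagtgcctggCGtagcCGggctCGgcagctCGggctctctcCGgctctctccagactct
Pcdh10, chr3:45378148-45378397, plus strand: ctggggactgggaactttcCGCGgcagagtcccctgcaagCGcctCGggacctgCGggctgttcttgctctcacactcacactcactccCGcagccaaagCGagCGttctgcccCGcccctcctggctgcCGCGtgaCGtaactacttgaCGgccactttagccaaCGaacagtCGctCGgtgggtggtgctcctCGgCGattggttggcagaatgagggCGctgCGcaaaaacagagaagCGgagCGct
Pcdh9, chr14:93890680-93890929, minus strand: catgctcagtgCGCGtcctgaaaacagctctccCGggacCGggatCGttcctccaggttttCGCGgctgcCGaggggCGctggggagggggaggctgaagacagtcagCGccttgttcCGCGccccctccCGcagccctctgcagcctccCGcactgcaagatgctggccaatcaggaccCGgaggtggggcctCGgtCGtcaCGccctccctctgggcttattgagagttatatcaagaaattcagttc
They held 16, 22 and 18 CpG and 69.2%, 63.2% and 63.6% G and C, against medians of 6 CpG and 52.4% over 32851 promoters. Members not counted as higher had like values in *Pcdh17* (21 CpG, 64.8%) and *Cdh8* (20 CpG, 64.4%). *Pcdh8* (11 CpG, 51.2%) and *Cdh6* (6 CpG, 51.2%) had lower ones. The letters TGATAC, a core known for SIX3 and SIX6, were searched on both strands (GTATCA on the other). They were in none of the 3 printed windows. Of the 7 members in the table (*Cdh6*, *Cdh8* and the 5 protocadherins) 1 held them, *Pcdh17*, and 4.64% of all promoter windows did. The match in *Pcdh17* is in capitals here.
Pcdh17, chr14:84443514-84443539, plus strand: cagagaatcaGTATCAatgtttaagc
A match is a description of letters, and binding was not analysed here.

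In neurogenic-like cells 1 of 8 measured members was higher in the DKO library, where 2.0% of 8429 genes were, and 0 were lower, where 0.890% were. *Pcdh9* was at 21.7 CPM (232 UMIs) in the control and 50.8 CPM (474 UMIs) in the DKO library (1.23, 1.0 to 1.46). It was past 2-fold in cluster 3 (1.14, 0.88 to 1.41) but not in cluster 9 (0.75, 0.24 to 1.25). The libraries differed in the make-up of this class, with 896 control and 1320 DKO cells in cluster 3 and 546 and 410 in cluster 9. *Pcdh10* was at 18.5 and 33.5 CPM (0.85, 0.59 to 1.12) and *Pcdh17* at 116 and 161 CPM (0.48, 0.37 to 0.59). *Pcdh19*, the member with the largest naive-like ratio among those measured, was here at 187 and 160.3 CPM (-0.22, -0.32 to -0.12). From naive-like to neurogenic-like cells *Pcdh19* was thus 8.5-fold higher in the control and 2.3-fold in the DKO library, and *Pcdh17* 2.52-fold and 5.84-fold. *Cdh4* was at 64.4 and 34.1 CPM (-0.92, -1.11 to -0.72), *Cdh11* at 178 and 145 CPM, *Cdh2* at 208 and 229.5 CPM and *Pcdh8* at 11.8 and 11.6 CPM. By cluster, *Cdh4* was more than 2-fold lower in cluster 3, at 45.2 and 18.2 CPM (-1.31, -1.64 to -0.98), but not in cluster 9 (-0.35, -0.60 to -0.11). The 7 thalamic eminence or Cajal-Retzius markers summed to 116 CPM in the control and 248 CPM in the DKO neurogenic-like cells, with 4 of 5 measured genes higher, and their part was not tested.

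In ganglion-like cells 0 of 8 measured members were past 2-fold, where 2.03% of 8360 genes were higher and 0.694% lower. All 8 ratios were above 0 in the main processing, with a median log2 ratio of 0.32 beside 0.03 over all genes. This did not hold under every alternative. The lowest ratio was below 0 for *Cdh2* (-0.04), *Cdh11* (-0.05), *Pcdh8* (-0.27), *Pcdh10* (-0.26), *Pcdh19* (-0.20) and *Cdh4*, and above 0 for *Pcdh9* (0.32) and *Pcdh17* (0.20). *Pcdh9* was at 90.6 and 145 CPM (0.68, 0.56 to 0.80), *Pcdh17* at 32 and 51 CPM (0.67, 0.46 to 0.88) and *Cdh4* at 23.5 and 36.5 CPM (0.63, 0.39 to 0.88). *Pcdh10* was at 24.3 and 32.6 CPM (0.42, 0.18 to 0.67), and the intervals of *Cdh2* (206 and 215 CPM), *Pcdh8* (17.9 and 20.8 CPM) and *Pcdh19* (91.4 and 97.2 CPM) included 0. *Cdh6* (4 and 9.1 CPM) did not reach the limit for a measured gene. *Cdh4* and *Pcdh17* so had ratios above 0 here and below 0 in naive-like cells. With DKO cells of Six3-low subclusters only (257 ganglion-like cells, in subclusters with little *Six3*), the ganglion-like ratio of *Cdh4* turned to -2.54 (-4.0 to -1.39), and without integration its interval included 0 (0.13, -0.15 to 0.43). In cluster 5 (586 control and 1047 DKO cells) *Cdh4* was at 14 and 27.4 CPM and *Pcdh17* at 22.5 and 45 CPM, and in cluster 7 (353 and 938 cells) *Cdh4* was at 36.3 and 44.4 CPM and *Pcdh17* at 44.7 and 56.1 CPM (0.33, 0.06 to 0.60). The interval of *Cdh4* included 0 in cluster 7 (0.29, -0.01 to 0.60), and neither gene was past 2-fold in either cluster. *Pcdh8* was at 7.22 and 17.9 CPM in cluster 5 (1.31, 0.74 to 1.92) but at 32.2 and 23.3 CPM in cluster 7 (-0.46, -0.81 to -0.11). *Pcdh9* was at 47.7 and 97 CPM in cluster 5 (1.02, 0.80 to 1.25) and at 148 and 187 CPM in cluster 7 (0.34, 0.19 to 0.49), so these 2 protocadherins were past 2-fold in cluster 5 alone. The 7 red blood markers summed to 8402 CPM in the control and 1450.0 CPM in the DKO ganglion-like cells, with 4 of 4 measured genes lower, and their part was not tested.

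Margin and pigment cells resembled naive-like cells in their protocadherins. Here 3 of 8 measured members were higher in the DKO library, where 2.56% of 8603 genes were, and 0 were lower, where 0.872% were. *Pcdh19* was at 37.4 and 103 CPM (1.46, 1.28 to 1.64), *Pcdh10* at 14.8 and 40 CPM (1.43, 1.15 to 1.72) and *Pcdh9* at 40.7 and 82.2 CPM (1.02, 0.84 to 1.19). *Cdh4* was at 79.6 and 42.4 CPM (-0.91, -1.08 to -0.74), *Cdh2* at 227 and 309 CPM (0.44, 0.36 to 0.52) and *Cdh11* at 409.5 and 459 CPM (0.16, 0.10 to 0.23). *Pcdh17* was at 63.1 and 62.9 CPM, without the difference seen in naive-like cells. In this cluster the ciliary margin markers summed to 830.0 and 2212 CPM with 4 of 7 measured genes higher, the pigment markers to 511 and 1345 CPM with 2 of 7 higher and the naive markers to 3352 and 1706 CPM with 5 of 9 lower, and their part was not tested. In lens-like cells *Cdh4* was at 68.6 and 45.3 CPM (-0.60, -0.88 to -0.32) and *Pcdh19* at 20.8 and 30.8 CPM (0.56, 0.16 to 0.97).

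At a finer resolution all cells were clustered and named anew, and 6 clusters were naive-like (3022 control and 3013 DKO cells). They are not exactly the cells of the naive-like class above, and fine clusters 9 and 14 were ciliary margin-like. The *Six3* level of the 6 clusters ranged from 99.7 to 504 CPM in the DKO library and from 269 to 378 CPM in the control. Ordered by DKO *Six3* of 504, 357, 275, 239, 127 and 99.7 CPM, the DKO level of *Pcdh19* was 29.4, 37.8, 42.5, 52.5, 86.5 and 110.1 CPM. *Pcdh9* was at 21.2, 22.6, 27.8, 37.4, 42.9 and 80.8 CPM and *Pcdh10* at 7.22, 6.71, 14.3, 19.3, 28.7 and 36.2 CPM in the same order. The 3 protocadherins were thus highest in the 2 fine clusters with the least *Six3*. In the control library these clusters held 13 to 22.6 CPM of *Pcdh19*, 14.7 to 27.2 CPM of *Pcdh9* and 5.69 to 10.7 CPM of *Pcdh10*. The order was noticed in the data, and its 6 points share 1 library and its depth. The 6 clusters also differed in markers. In fine clusters 4 and 11, both led by *Fabp7*, 7 of the 9 naive markers were above the other cells, and 8 or 9 were in the rest. The part of these marker differences in the order was not tested.

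The fine clusters also differed in their ratios. In fine cluster 11 (372 control and 561 DKO cells, led by *Fabp7*), which had the least *Six3*, *Pcdh19* was at 14.5 CPM (34 UMIs) in the control and 110.1 CPM (380 UMIs) in the DKO library (2.93, 2.42 to 3.48). *Pcdh10* was at 6.8 and 36.2 CPM (2.41, 1.66 to 3.26) and *Cdh6* at 25.9 and 60.8 CPM (1.23, 0.81 to 1.67). In fine cluster 5 (587 and 498 cells), which had the most, *Pcdh19* was at 22.6 and 29.4 CPM (0.38, 0.01 to 0.75), and the intervals of *Pcdh9*, *Pcdh10* and *Cdh6* included 0. *Cdh4* had ratios below 0 in all 6 fine clusters, with log2 values from -1.18 to -0.38. *Pcdh17* did not keep 1 direction, at 53 and 26.7 CPM in fine cluster 5 (-0.99, -1.32 to -0.67) but at 13.2 and 26 CPM in fine cluster 15 (0.98, 0.43 to 1.53).

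**Figure D3:**
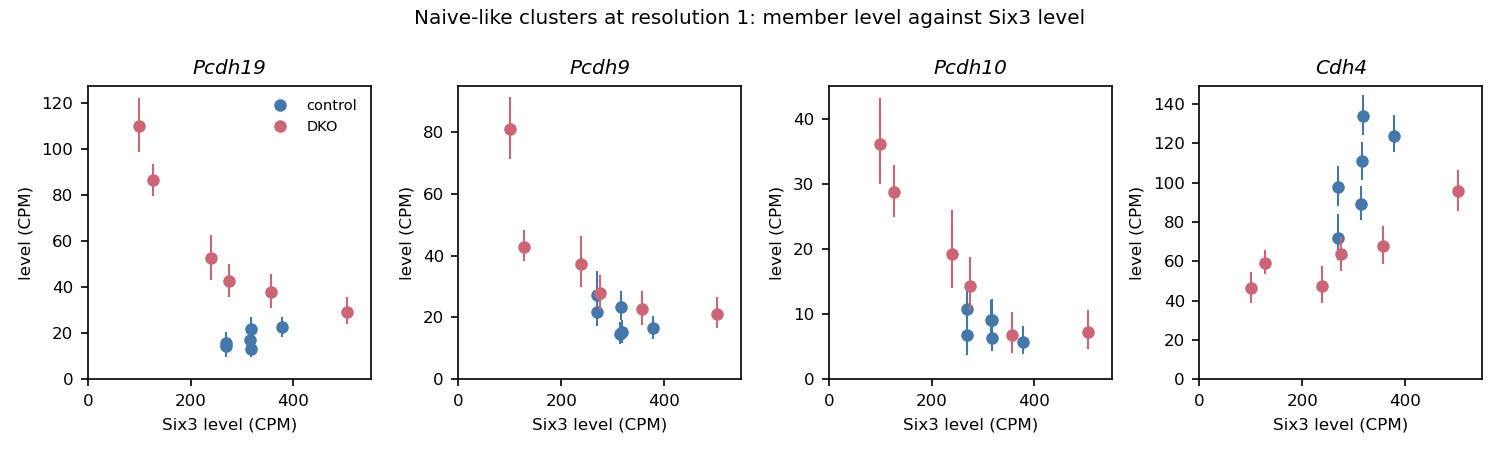
Level of *Pcdh19*, *Pcdh9*, *Pcdh10* and *Cdh4* (vertical axis, CPM, with 95% Poisson intervals) against the level of *Six3* (horizontal axis, CPM) in the 6 naive-like fine clusters, 1 point per cluster and library, control in blue and DKO in red. The DKO points of the 3 protocadherins are highest at 99.7 and 127 CPM of *Six3*, and those of *Cdh4* reach 95.6 CPM at 504 CPM of *Six3*.

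When the DKO cells were clustered alone, 8 of 26 subclusters held *Six3* under 50% of the control naive-like level and were called Six3-low. Of the DKO naive-like cells 1302 (39.4%) lay in these and 2005 in others. Between them 0 of 9 measured members differed 2-fold, where 1.60% of 8508 genes were higher and 2.0% lower in Six3-low cells. *Pcdh10* was at 15.4 CPM in the other cells and 30.6 CPM in Six3-low cells (0.99, 0.76 to 1.22), just outside the limit. *Pcdh19* was at 54.4 and 92.8 CPM (0.77, 0.64 to 0.90), *Cdh6* at 31.3 and 54 CPM (0.79, 0.62 to 0.96) and *Pcdh9* at 36.1 and 54.5 CPM (0.60, 0.43 to 0.76). *Cdh8*, at 10 and 5.22 CPM (-0.94, -1.39 to -0.51), and *Cdh11*, at 346 and 252 CPM (-0.46, -0.52 to -0.39), had the opposite sign. Against the control, *Pcdh19* was higher both in Six3-low cells (2.08, 1.94 to 2.22) and in the other DKO cells (1.31, 1.17 to 1.45), whose summed *Six3* was at 312 CPM beside 309 CPM in the control. The control had 1 intact *Six3* allele, while a DKO cell without deletion has both floxed alleles. A level like that of the control therefore does not show that *Six3* was intact in the other DKO cells.

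The other DKO cells were not uniform. 1 of their 3 larger subclusters (488 naive-like cells) had *Six3* at 175 CPM over all its cells, just above the limit, and held *Pcdh19* at 93.8 CPM, *Pcdh9* at 59 CPM and *Pcdh10* at 25.6 CPM. The remaining 2 (843 and 655 cells, *Six3* at 286 and 483 CPM) held *Pcdh19* at 34.4 and 29.5 CPM, *Pcdh9* at 24.8 and 21 CPM and *Pcdh10* at 9.19 and 9.95 CPM. In the 2 larger Six3-low subclusters (*Six3* at 104 and 115 CPM) *Pcdh19* was at 109 and 85.9 CPM, so the subcluster just above the limit lay with them. Pigment markers summed to 108 CPM in the other DKO cells and 29.3 CPM in Six3-low cells, and naive markers to 4712 and 2010.3 CPM, and their part was not tested.

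By cell cycle phase, assigned on cells thinned to 2000 UMIs, the naive-like differences were followed through the cycle. *Pcdh19* was at 19.5 CPM in control and 109.5 CPM in DKO cells assigned to G1 (374 and 430 cells, 2.49, 2.06 to 2.94), at 22.1 and 61.4 CPM in S (1.47, 1.29 to 1.66) and at 22.4 and 69.6 CPM in G2M (1.64, 1.45 to 1.82). *Pcdh9* was at 26.8, 24.1 and 17.3 CPM in G1, S and G2M of the control and at 77.2, 40.6 and 39.7 CPM in the DKO library. *Pcdh17* had ratios of -1.10, -0.90 and -0.52 and *Cdh4* of -0.98, -0.82 and -0.82. The ratios of *Pcdh19* and *Pcdh9* (1.52, 0.75 and 1.2) were thus above 0 and those of *Pcdh17* and *Cdh4* below 0 in each phase, with *Pcdh9* under 2-fold in S, *Pcdh17* in S and G2M and *Cdh4* in all 3. *Cdh6* differed in G1, at 33.8 and 60.3 CPM (0.83, 0.45 to 1.22), and had ratios of 0.04 and -0.11 in S and G2M, with intervals that included 0. Phase calls also read free RNA, and its part was not tested.

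**Figure D4:**
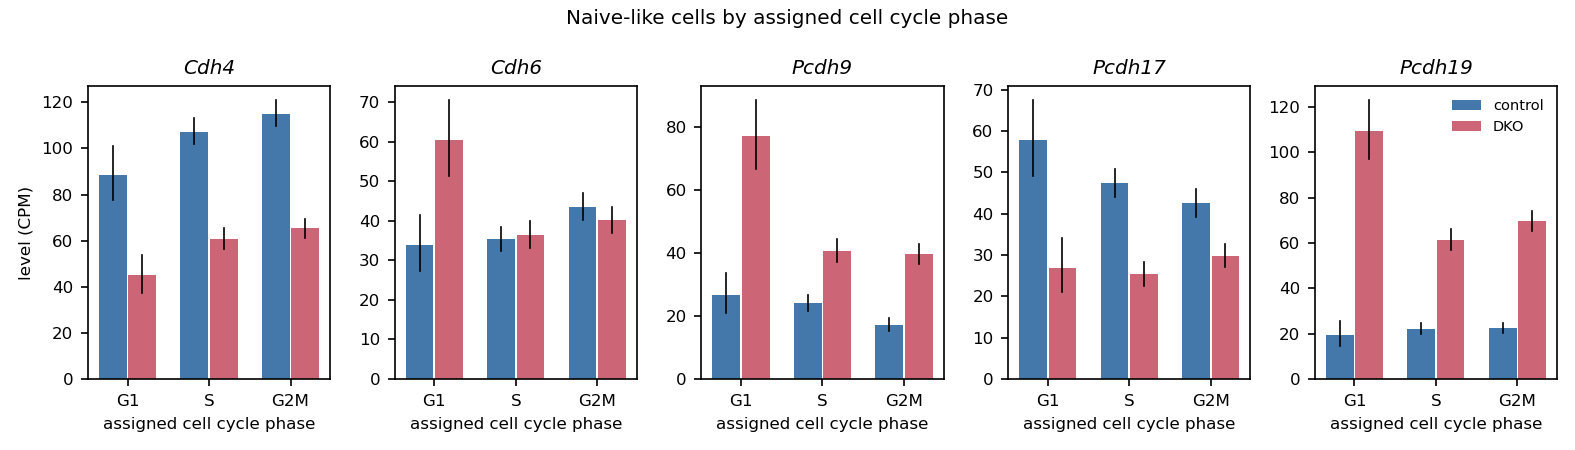
Level of 5 members (vertical axis, CPM, bars from 0 with 95% Poisson intervals) in naive-like cells by assigned cell cycle phase, control in blue and DKO in red. *Cdh6*, *Pcdh9* and *Pcdh19* have their highest DKO bar in G1, while *Pcdh19* stays between 19.5 and 22.4 CPM in the control.

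Cluster 10, with almost no control cells, was set beside other cells of the DKO library. Against neurogenic-like cells 2 of 10 measured members were higher, where 11.7% of 8648 genes were, and 0 were lower, where 11.4% were. *Cdh8*, a type II cadherin of parts of the forebrain, was at 25 CPM (20.2 to 30.6) in cluster 10, 9.33 CPM in neurogenic-like and 3.27 CPM in ganglion-like cells. *Pcdh8* was at 25, 11.6 and 20.8 CPM in the same groups. Against ganglion-like cells 2 of 10 were higher, where 2.99% of 8296 genes were, and 1 was lower, where 4.68% were. *Pcdh17* was at 157 CPM in cluster 10 and 51 CPM in ganglion-like cells (1.62, 1.46 to 1.78), and at 161 CPM in neurogenic-like cells. *Pcdh9* was at 57.8 CPM beside 145 CPM in ganglion-like cells (-1.33, -1.54 to -1.13), and *Pcdh10* at 59.6 CPM beside 33.5 CPM in neurogenic-like and 32.6 CPM in ganglion-like cells. In cluster 10 *Cdh8* was thus higher than in neurogenic-like and in ganglion-like cells, with *Pcdh17* near its neurogenic-like level.

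Per cell, after thinning to 2000 UMIs, *Pcdh19* had a UMI in 4.17% of control naive-like cells (3.5 to 4.91, exact binomial) and in 12.5% of DKO naive-like cells (11.4 to 13.7). In red blood-like clusters 8 and 11, which should lack it, 2 of 1061 control cells (0.189%) and 0 of 541 DKO cells had one, which allows a share of up to 0.555%. Before thinning the naive-like shares were 15.7% and 35.6%, at median depths of 8856 and 7527 UMIs beside 8453 and 6343 UMIs in the red blood-like cells. *Pcdh19* was thus found in more DKO than control cells, above background in both. *Pcdh10* had a UMI in 1.67% and 3.92% and *Pcdh9* in 3.98% and 7.99% of thinned naive-like cells, and in no thinned red blood-like cell. *Cdh4* had one in 18.2% and 12.4%, beside 0.283% and 0.37% of red blood-like cells. *Pcdh8* had one in 0.0309% of control naive-like cells, not above its 0.189% in control red blood-like cells. In the DKO library 0.551% of naive-like and 0 of 541 red blood-like cells had one, which allows up to 0.555%, so the thinned shares could not separate them. Before thinning, 1.51% of DKO naive-like cells (1.12 to 1.99) and 0 of 555 DKO red blood-like cells (0 to 0.662%) had one. The DKO levels of *Pcdh8* were 1.93 CPM (1.46 to 2.5) and 0 CPM (0 to 1.02) in these cells.

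A list of 39 further cadherin superfamily and catenin genes was examined in naive-like cells. Of 18 measured genes 2 were higher in the DKO library and 0 lower, where 1.78% and 0.592% of all genes were, with a median log2 ratio of 0.12. The delta protocadherin *Pcdh18* was at 18.6 and 38.7 CPM (1.05, 0.91 to 1.2) and *Cdh13*, a cadherin with a lipid anchor, at 7.04 and 15.1 CPM (1.11, 0.87 to 1.34). Within the DKO library they were at 51.6 and 23.8 CPM in Six3-low cells and at 30 and 9.33 CPM in the other naive-like cells. *Fat4*, a giant cadherin of planar polarity, was at 55.7 and 31.9 CPM (-0.80, -0.92 to -0.69), and the catenin *Ctnnb1* at 306 and 345 CPM (0.17, 0.13 to 0.21). Under the 10 CPM of a measured gene, *Pcdh1* was at 8.97 and 2.86 CPM (-1.65, -2.02 to -1.30) and *Pcdh20* at 2.02 and 4.89 CPM (1.27, 0.84 to 1.71). *Pcdh7*, which was measured, was at 76.3 and 63.6 CPM (-0.26, -0.35 to -0.17). *Fat4*, *Ctnnb1*, *Pcdh1*, *Pcdh20* and *Pcdh7* were named after their values were seen. The clustered protocadherins were summed per family, since genes of the alpha and of the gamma family share 3' exons. The 22 beta genes summed to 6.98 and 11.6 CPM in naive-like cells (0.74, 0.49 to 0.99) and 40 and 64.1 CPM in ganglion-like cells (0.68, 0.49 to 0.87), and the 21 gamma genes to 30 and 32.6 CPM in naive-like cells (0.12, -0.01 to 0.25).

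The log2(CPM + 10) levels of the members over 37 groups (1 cluster in 1 library, at least 50 cells) were compared with those of 11879 genes. *Pcdh19* was most like *Zeb1* (Pearson r = 0.92), *Setbp1* and *Slain1* (both 0.91), *Pcdh9* most like *Cers4*, *Akap1* (both 0.91) and *Alg2* (0.90), and *Pcdh10* most like *Csrnp3*, *Magi2* (both 0.90) and *Lrrn1* (0.89). For *Pcdh17* they were *Ncoa1*, *Sgip1* (both 0.92) and *Zfp160* (0.91), and for *Pcdh8* they were *B3gat1*, *Rab3c* and *Runx1t1* (all 0.93). *Cdh2* was most like *Tspan3* (0.98), *Ckap4* and *Ktn1* (both 0.96), and *Cdh4* most like *Acsl3* (0.92), *Usp37* (0.91) and *Bmpr1a* (0.90). For the type II cadherins they were *Lrp2*, *Nos1ap* (both 0.92) and *Col11a1* (0.91) with *Cdh6*, *Cdc14a* (0.96), *Nr2f1* (0.94) and *Abca5* (0.93) with *Cdh11*, and *Gm5441* (0.83) and *Rnf182* (0.80) with *Cdh8*. Among the members *Pcdh10* came close to *Pcdh9* (0.86), *Pcdh19* (0.86) and *Pcdh17* (0.85), *Pcdh17* to *Pcdh19* (0.84) and *Cdh2* to *Cdh4* (0.84). The groups share 2 libraries and include the red blood-like clusters with almost no UMIs of the members.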

How the data were processed

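The deposited matrices hold UMI counts per gene and cell barcode, made by the authors with Cell Ranger 3.1.0 (mm10, per the labels) from 10x 3' version 3 libraries, and were not normalized. Cells with over 200 and under 6000 genes and under 20% mitochondrial counts were kept, as in the study. Both libraries were integrated and clustered with Seurat 5.3.0 (R 4.3.3) on 2000 variable genes and 20 dimensions at resolution 0.5, with 181 genes left out (the members, other cadherin genes, *Six3*, *Six6*, sex-linked genes and others). Sums, exact Poisson, binomial and binomial-split intervals (95%) and figures were made in Python 3.11.15 with numpy 2.4.6, scipy 1.17.1, pandas 2.3.3 and matplotlib 3.10.9. The ratio step was tested on simulated data.

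A cluster was named where at least 3 markers were detected, 75% of a list was above the other cells and its top 10 genes did not hold more markers of another class. These genes were ranked with 50 CPM added, a value chosen after the clusters were seen. With 5 CPM added, cluster 1 (1188 control and 1198 DKO cells of the naive-like class) and lens-like cluster 14 would be unnamed, and this was run as an alternative. Cluster 4 (few UMIs) and cluster 15 (90.6% called doublets) were unnamed. Doublets were called with Scrublet in scanpy 1.11.5 at a score of 0.25 (331 control and 362 DKO cells) and kept. The members, marker lists and gene lists were chosen with earlier results of these data known. Named genes were the members, the 3 genes most like each, and list genes past 2-fold, and 1 gene this rule names is not reported here. The printed promoters, the order by *Six3* in fine clusters and red blood-like clusters 8 and 11 as background (cluster 12 had 22.8% doublets) were chosen after values were seen. Alternatives were the clustering genes, resolution, integration, kernel, doublets, gene minimum, CPM total, scale, fold, thinning and Six3-low cells.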

Additional observations from a re-analysis of the deposited data

Results flagged for a closer look

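*Cdh4* and *Pcdh17* had DKO over control ratios of opposite direction in different classes, each by at least 1.5-fold with an interval on 1 side of 0, a limit set after the values were seen. *Cdh4* had a log2 ratio of 0.63 in ganglion-like cells, -0.82 in naive-like cells and -0.92 in neurogenic-like cells. Its ganglion-like ratio was -2.54 with Six3-low DKO cells (257 cells) and 0.13 without integration, with an interval that included 0. *Pcdh17* had a log2 ratio of 0.67 in ganglion-like cells and -0.74 in naive-like cells. The difference between classes was not tested, since each genotype had 1 library.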

How the results depend on the processing

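No paired analysis was possible because the control and the DKO group held 1 library each. Of 360 member ratios under the alternatives 284 stayed within the counting interval, 76 moved out of it and 0 called ratios changed sign. A change of sign was counted for called ratios alone, and several ratios that were not called had both signs. Among these were *Pcdh17* (-0.32 to 0.57) and *Cdh11* (-0.35 to 0.46) in neurogenic-like cells, *Cdh6* in naive-like cells (-0.21 to 0.49) and *Pcdh10* in ganglion-like cells (-0.26 to 0.45). The ganglion-like ratio of *Cdh4* (0.63, not called) was -2.54 with Six3-low DKO cells, and 0.13 to 0.79 under the other alternatives. In this alternative Six3-low meant under 50% of the control *Six3* level of the class compared. That level was 309 CPM in naive-like, 315 CPM in neurogenic-like and 741 CPM in ganglion-like cells, so the limit differed between classes. The count of 3 called members in naive-like cells became 1 without integration, 0 as a difference of log2(mean count per 10000 + 1) and 5 at a fold of 1.5. With leading genes ranked with 5 CPM added, an alternative chosen after seeing the data that left 2086 control and 2109 DKO naive-like cells, it was 2. The count of 1 in neurogenic-like cells became 0 on that log2 scale, 4 with Six3-low DKO cells (43 cells) and 3 at a fold of 1.5. The count of 0 in ganglion-like cells became 1 without integration and 1 without hemoglobin, mitochondrial and ribosomal protein genes in the total (*Cdh6* both times), 3 with Six3-low DKO cells (257 cells) and 3 at a fold of 1.5. Between Six3-low and other DKO naive-like cells 0 became 5 at a fold of 1.5. Of the superfamily list 2 became 5 at a fold of 1.5, 0 at 50 CPM and 100 UMIs, and 4 with Six3-low DKO cells. The cause was not tested. All 60 shares of cells with a UMI moved without thinning, and 3 of 60 levels by phase did. Counting depth limited most members in the classes under 200 cells, where 3 (amacrine- or horizontal-like) and 2 (photoreceptor-like) members were measured.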
